A study of Homo sapiens with 36 samples.

Results

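The 34 genes described here encode the machinery that folds proteins in the endoplasmic reticulum (ER) and the unfolded protein response that adjusts it. They were taken by symbol from a table of 60628 genes, and each symbol matched 1 row. The ER lumen holds chaperones of the Hsp70 and Hsp90 families, lectin chaperones that bind glycoproteins, and disulfide isomerases. When unfolded protein accumulates, the membrane sensors ERN1 (IRE1 alpha), EIF2AK3 (PERK) and ATF6 raise chaperone synthesis, lower the protein load and send misfolded protein back to the cytosol for degradation. In lymphocytes the pathway is best known from plasma cell differentiation, which requires XBP1, and it also operates in T cells and their tumours.

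Polyadenylated RNA from 7 established human T cell lines was sequenced in 36 libraries, 18 with a scrambled control construct and 18 with a construct against GATA3, a zinc finger transcription factor of the T lineage. The labels class H9 (2 control and 3 knockdown libraries), MyLa (MylaCD4+ in the titles, 3 and 3) and Mac1 (2 and 2) as cutaneous T cells; these lines stem from cutaneous T cell lymphoma (CTCL). The acute lymphoblastic leukaemia (T-ALL) lines were MOLT4 (2 and 2), THP6 (3 and 2), CCRF-CEM (3 and 3) and SUP-T1 (3 and 3). The labels name the construct as shGATA3 and mark the controls as wild type, although these carry the scrambled construct; all lines shared 1 medium, RPMI with serum and antibiotics. Nothing in the labels ties a replicate to its own culture or transduction, and the p-values below reflect library-to-library spread that may be no more than technical.

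Levels are CPM, counts scaled to a common total, on the library total scaled by the trimmed mean of M-values (TMM), and changes are log2 fold changes of knockdown over control from edgeR's quasi-likelihood test, with its standard error (SE) and a Benjamini-Hochberg adjusted p over all 21138 tested genes. A gene is called where the adjusted p is below 0.05. Library totals ran from 18.62 M to 50.63 M counts, and all 34 members passed the filter on low counts. GATA3 itself fell in 6 lines, by 39.1% in MyLa to 63.5% in MOLT4. In SUP-T1 it was at 24.1 CPM ± 0.394 (SD, n = 3) in the libraries labelled control and 81.7 CPM ± 4.72 (SD, n = 3) in those labelled knockdown, against the labels, so SUP-T1 directions are those of the labels only. THP6 knockdown 2 differed from THP6 knockdown 1 by 169.6 times the Poisson variance per gene, and CCRF-CEM control 2 from the other 2 controls by 94.1 and 112.8 times, against 3.89 to 37.2 times for the other pairs of replicates. T cell markers were expressed in every line, at 1 CPM or more for all 13 in SUP-T1 and 12 in H9, CCRF-CEM and THP6, 11 in MOLT4, 7 in MyLa and 6 in Mac1. CD3E, CD5, CD7, CD28 and LCK were below 1 CPM in both MyLa and Mac1. CD4 was also below 1 CPM in MyLa (control mean 0.0363 CPM), against the name MylaCD4+ in its titles. Of the fibroblast and epithelial markers, MyLa controls held COL3A1 at a mean of 197.7 CPM and COL1A1 at 103.6 CPM. COL1A2, DCN, LUM, EPCAM, KRT8 and KRT18 were below 1 CPM there. Fewer cells of a kind and less RNA per cell cannot be told apart in such bulk libraries.

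In the control libraries the 7 lines differed in how much of this machinery they transcribed. For SUP-T1, here and below, these are the libraries labelled control, which held less GATA3 than those labelled knockdown. All 34 members differed in control level between lines (F test over 7 lines, 96.3% of all tested genes did so), and the members together summed to between 3839 and 4116 CPM in SUP-T1 controls and between 8561 and 8677 CPM in Mac1 controls. Per kilobase of exon, CALR (calreticulin, a lectin chaperone that also buffers calcium) had the highest median control level over lines, 398 CPM per kb, followed by P4HB (a protein disulfide isomerase) at 117, HSP90B1 (the ER Hsp90 chaperone) at 116 and HSPA5 (BiP, the ER Hsp70 chaperone) at 112. The sensor ERN1 at 1.39 and the derlin DERL3 at 0.568 CPM per kb were the lowest. The other sensors were also in the lower part of the list on this scale, EIF2AK3 at 4.13 and ATF6 at 5.66 CPM per kb.

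**Figure D1:**
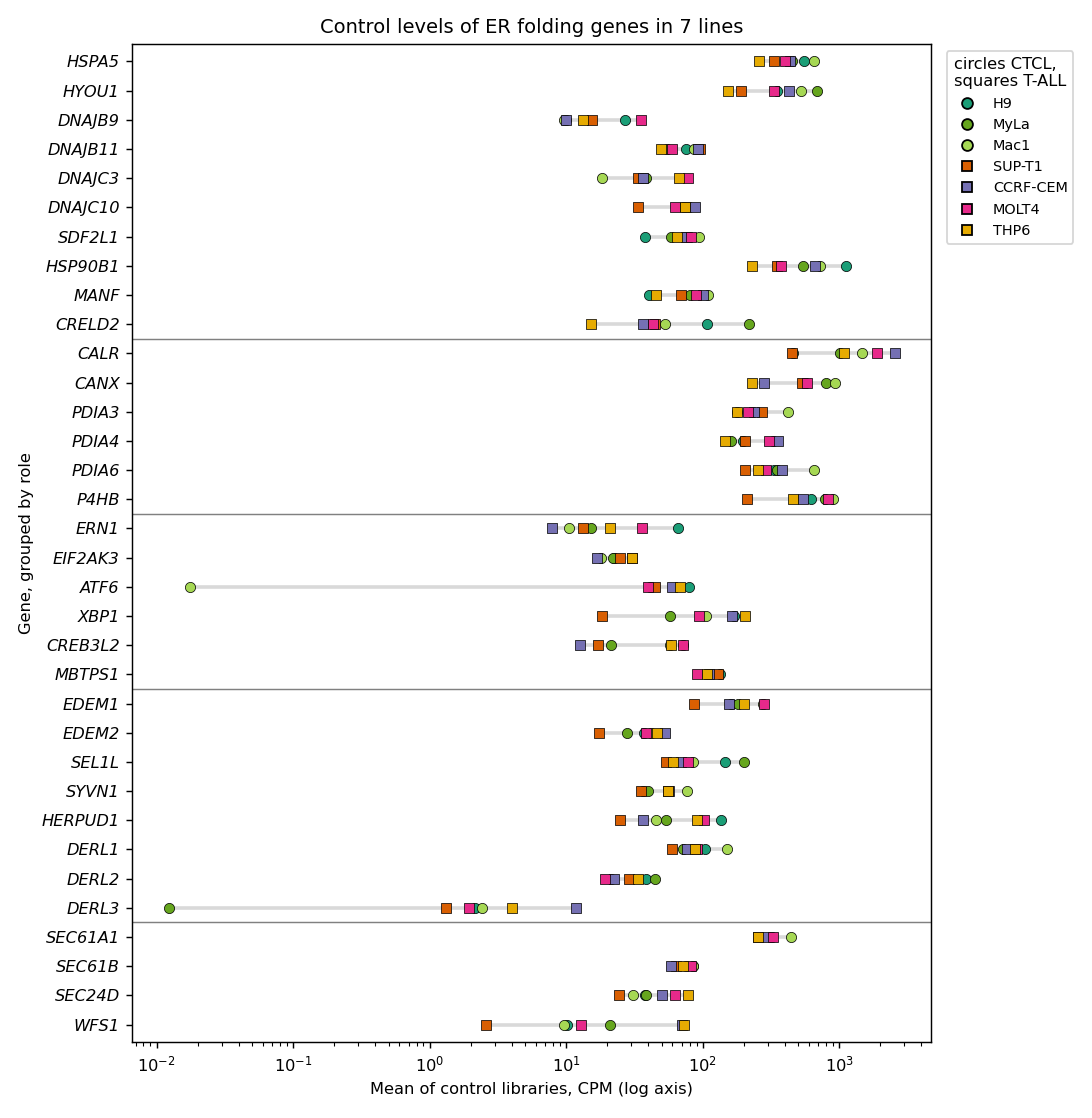
Mean CPM of the control libraries (log axis) of each member in 7 lines, circles for CTCL and squares for T-ALL, with genes grouped by role. MBTPS1 and SEC61B span less than 1.5-fold over the lines, while ATF6 in Mac1 and DERL3 in MyLa stand near 0.

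The spread over lines was widest, among members measured in every line, for WFS1, CRELD2 and XBP1. WFS1 (wolframin, an ER membrane protein tied to calcium) ran from 2.60 CPM in SUP-T1 to 72.8 CPM in THP6, and only CCRF-CEM (70.8 CPM mean) was near THP6. CRELD2 (a secreted ER stress protein with isomerase activity) was at 15.1 CPM in THP6 and 218 CPM in MyLa. XBP1 (the transcription factor whose mRNA ERN1 splices) was at 18.4 CPM in SUP-T1 and 205 CPM in THP6; gene counts hold no value for the spliced form. ERN1 was at 65.8 CPM ± 7.08 (SD, n = 2) in H9, 36.1 ± 1.33 (n = 2) in MOLT4 and 20.8 or less in the other 5 lines. HERPUD1 (an ER membrane protein of the degradation complex) was likewise highest in H9, at 136 CPM, and lowest in SUP-T1, at 24.9 CPM. At the other end MBTPS1 (the protease that cleaves ATF6) differed 1.48-fold and SEC61B (a subunit of the protein-conducting channel) 1.44-fold between the lowest and highest line.

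With the line as the unit, no member differed between the 3 CTCL and 4 T-ALL lines in control level (edgeR on summed counts; 0.280% of all 18565 tested genes did), and DESeq2 also called none. At an unadjusted p below 0.05 there were 4 members in edgeR and 2 in DESeq2, or 11.8% and 5.88% of members, below the 13.8% and 18% of all genes. The lowest p belonged to SEL1L (the adaptor of the SYVN1 ubiquitin ligase), at 84.3 to 202 CPM in CTCL and 53.5 to 78.2 CPM in T-ALL lines (log2 difference 1.17, SE 0.319, adjusted p = 0.196). CRELD2 followed, at 52.8 to 218 against 15.1 to 45.0 CPM (log2 difference 1.88, SE 0.555, adjusted p = 0.221). The line ranges of both genes did not overlap between the classes, nor did those of HSPA5 (450.1 to 658 against 259.8 to 436.9 CPM). How many of all genes had such ranges was not counted.

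ATF6 was nearly absent from Mac1. Its 2 control libraries held 0 and 1 counts and its 2 knockdown libraries 2 and 3, while all 32 libraries of the other lines held between 839 and 2281. ATF6 lies at chr1:161766294-161964070 on the plus strand (GRCh38, GENCODE 29), and DUSP12, 9056 bases away and the nearest gene that reached 5 CPM in another line, was at 20.5 CPM in Mac1 controls, inside the 11.9 to 61.6 CPM of the other lines. Of 25 genes within 1 Mb that reached 5 CPM in another line, 20 were at 1 CPM or more in Mac1 controls, 18 lay within the range of the other lines and 4 below all of them. Whether the locus, its transcription or the counting of its reads differs in Mac1 was not tested. DERL3 was near 0 in MyLa, with 0 to 2 counts a library, against 9 to 358 in the other lines. No fold change is given for either gene in those lines.

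**Figure D2:**
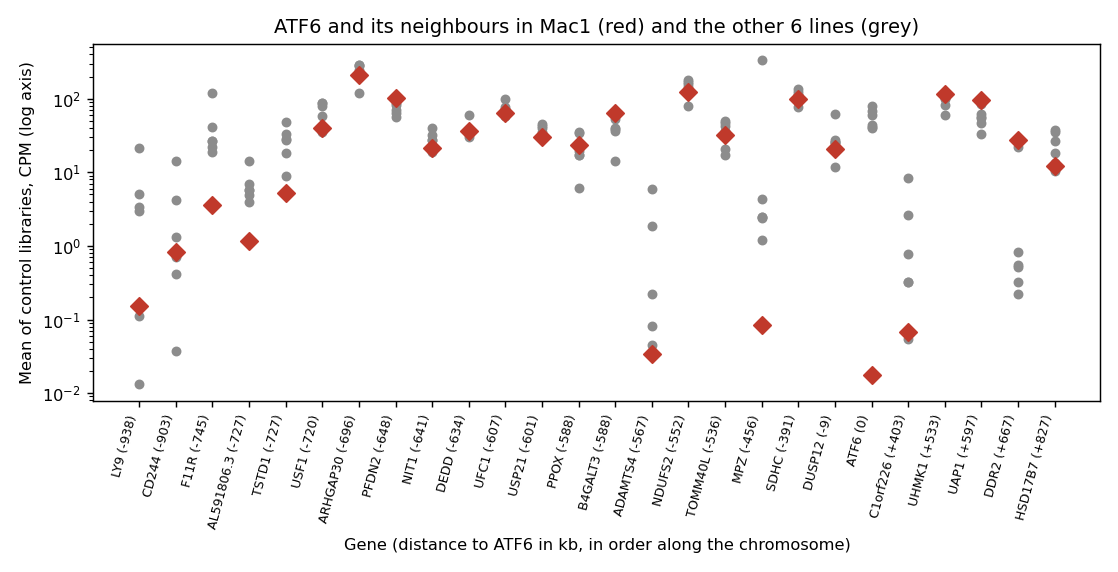
Mean CPM of the control libraries (log axis) of ATF6 and of neighbours within 1 Mb that reached 5 CPM in a line other than Mac1, in chromosome order with the distance to ATF6 in kb. Mac1 (red diamonds) has 20.5 CPM of DUSP12, the nearest neighbour, while its ATF6 point lies far below the grey points of the other 6 lines.

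The promoters of several members hold the ER stress response element, to which ATF6 binds together with the CCAAT factor NF-Y and to which XBP1 can also bind. A RefSeq promoter (GRCh38.p14, 250 bases before to 50 after the start) was found for 30 of 34 members, all but PDIA3, DERL1, DERL3 and SEC24D. The full element, CCAAT and CCACG with 9 bases of any kind between them, on either strand, was in 7 of these 30 (HSPA5, HSP90B1, CRELD2, CALR, CANX, PDIA6 and XBP1) and in 0.0769% of all 35116 promoters. A second form, ATTGG and CCACG with 1 base between them, was in HYOU1, SDF2L1 and HERPUD1 and in 0.0541% of promoters. The XBP1 element TGACGTGG was in HYOU1 and DNAJC10 (0.729% of promoters). Each full element contains the shorter CCAAT and CCACG, which alone were in 25 and 23 members and in 34.6% and 38.1% of promoters. Counted per gene over 27305 genes, as the members are, the shares were 0.0916% and 0.0696% for the 2 forms, 0.927% for the XBP1 element, 39.7% for CCAAT and 42.1% for CCACG. Windows of 30 bases from 7 members whose response is described below are shown on the gene's strand, with the element in capitals (it reads CGTGG first where it lies on the opposite strand):
HSPA5: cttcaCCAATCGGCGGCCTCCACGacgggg
HSP90B1: cctgaCCAATCGGAAGGAGCCACGcttcgg
CALR: ccacgCGTGGTCGACCATCATTGGtcggtg
CANX: cccggCCAATCTTCACACTCCACGaagaat
XBP1: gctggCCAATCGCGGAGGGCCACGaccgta
HYOU1: ggcctgggaCGTGGTCCAATgagtacgcgc
HERPUD1: cggacgccgATTGGGCCACGttgggagagt
These windows lie at chr9:125241385-125241414 (HSPA5, minus strand), chr12:103930211-103930240 (HSP90B1, plus), chr19:12938379-12938408 (CALR, plus), chr5:179698773-179698802 (CANX, plus), chr22:28800597-28800626 (XBP1, minus), chr11:119057264-119057293 (HYOU1, minus) and chr16:56932016-56932045 (HERPUD1, plus). HSP90B1 and HYOU1 each hold a further copy in the same promoter. The GATA word (GATA with A or T before it and A or G after it, either strand) was in 5 of the 30, HSPA5, DNAJC3, PDIA4, EIF2AK3 and ATF6, or 16.7% of members beside 25.0% of all promoters and 29.1% of genes. A match describes these letters and not binding.

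On knockdown the members' responses were line-specific. Of 238 pairs of member and line, 43 were called, 11 higher and 32 lower; 19 of the lower calls were in MOLT4 and 6 in H9. The response itself differed between the 7 lines for 23 of 34 members (F test of the interaction of line and arm), beside 35.2% of all tested genes, with the lowest adjusted p for CALR (3.96e-09), XBP1 (9.37e-06) and CANX (1.87e-05). DNAJB9 (a J-domain partner of HSPA5) was called in 4 lines and HERPUD1 in 3, and 8 members in none: DNAJB11, MANF, PDIA3, PDIA6, EIF2AK3, MBTPS1, EDEM2 and SEC61B.

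**Figure D3:**
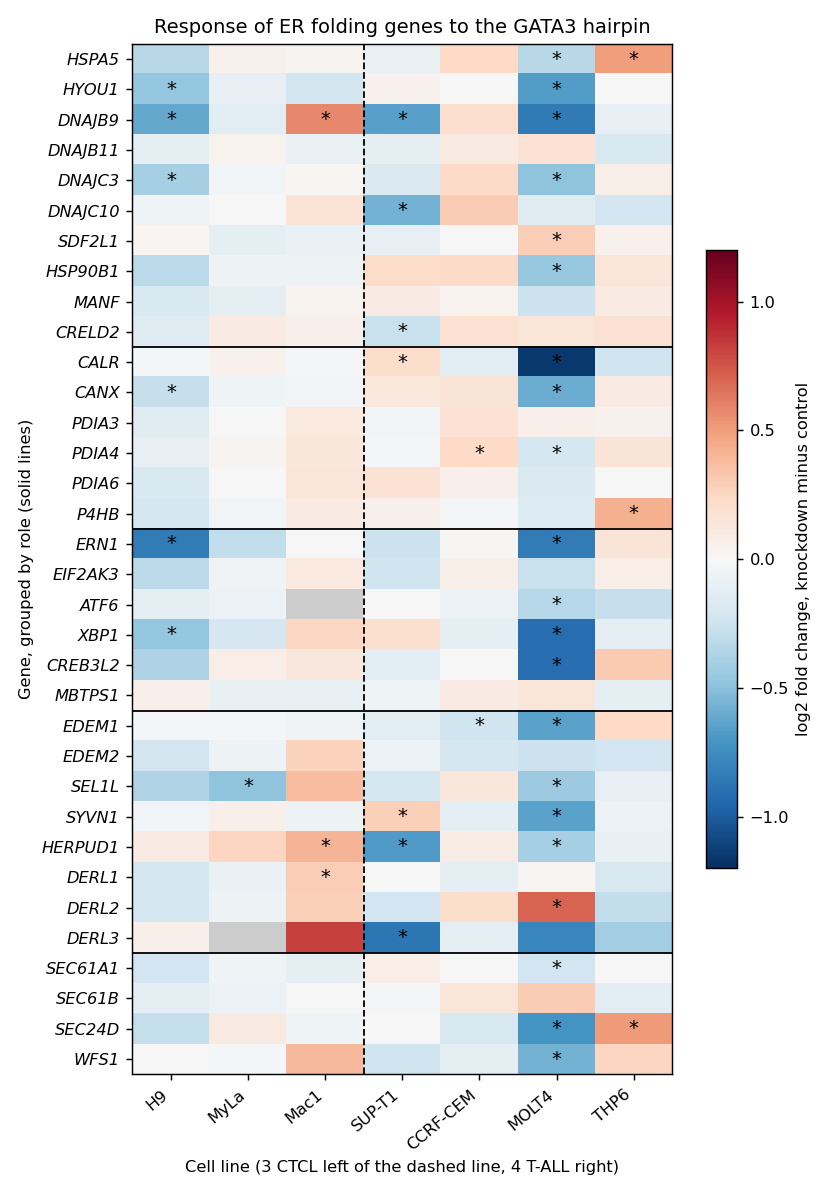
Log2 fold change (knockdown minus control, colour) of the 34 members in 7 lines, with an asterisk where edgeR's adjusted p is below 0.05 and grey where a line has at most 3 counts per library (ATF6 in Mac1, DERL3 in MyLa). The MOLT4 column holds 19 lower and 2 higher calls, the H9 column 6 lower.

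**Figure D4:**
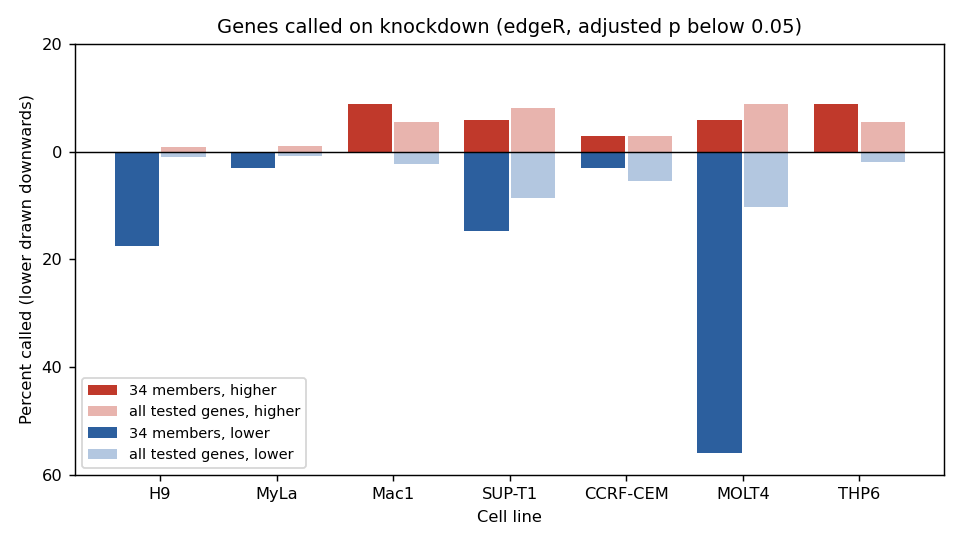
Percent of the 34 members (dark bars) and of all tested genes (pale bars) called higher (drawn upwards) or lower (drawn downwards) in each line. MOLT4 has 55.9% of members lower beside 10.3% of tested genes, and H9 17.6% beside 0.965%.

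In MOLT4 19 of the 34 members fell in the knockdown libraries and 2 rose, beside 10.3% of all tested genes lower and 8.88% higher. Members are well expressed, and among the 10106 genes with a mean of at least 10 CPM, a threshold set after seeing the data, 13.7% were lower in MOLT4, while 57.6% of the 33 members above it were. The members' CPM summed to 7091 and 7277 in the 2 controls and to 5116 and 5176 in the 2 knockdown libraries. CALR alone made up a mean of 1879 CPM of this sum in controls and 844 CPM in knockdown libraries. The members' median log2 fold change was -0.34, beside 0.01 over the same 10106 genes. The libraries did not overlap, with both knockdown values lower, for 26 members (32.6% of all tested genes). The calls of HSPA5, SDF2L1, PDIA4, ATF6, SEL1L, HERPUD1, DERL2 and SEC61A1 were each lost in at least 1 fit without a library. Leaving out a MOLT4 library left 1 in its arm.

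The largest fall was in CALR. It was at 1859 and 1898 CPM in controls and 856.6 and 831.4 CPM in knockdown libraries (log2 fold change -1.15, SE 0.0845, adjusted p = 2.11e-11). No other line showed a fall of CALR past the threshold. In Mac1, CCRF-CEM and THP6 its knockdown values all lay below the controls without a call. Such separation held for 22.1%, 15.9% and 7.30% of all tested genes in these lines. By its labels SUP-T1 had more CALR in the knockdown libraries (453.5 to 525.7 CPM, edgeR, adjusted p = 0.0296), which were those with more GATA3. CANX (calnexin, the membrane-bound lectin chaperone) was at 587.9 and 579.9 CPM in MOLT4 controls and fell to 363.3 and 408.6 CPM (log2 fold change -0.60, adjusted p = 3.45e-06). Among the isomerases PDIA4 fell from 306.1 to 264.8 CPM, while P4HB, PDIA3 and PDIA6 were not called in MOLT4.

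Of the 3 sensors, ERN1 and ATF6 fell in MOLT4. ERN1 was at 37.02 and 35.13 CPM in controls and 20.22 and 20.07 CPM in knockdown libraries (log2 fold change -0.84, SE 0.151, adjusted p = 0.000133). ATF6 was at 38.85 and 40 against 28.7 and 33.35 CPM (adjusted p = 0.0192). EIF2AK3, at 29.92 and 30.3 against 24.46 and 25.7 CPM, was lower in both knockdown libraries and missed the threshold (adjusted p = 0.115).

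The transcription factors XBP1 and CREB3L2 fell by similar amounts. XBP1 was at 93.3 and 93.79 CPM in MOLT4 controls and 48 and 51.3 CPM in knockdown libraries (log2 fold change -0.91, SE 0.113, adjusted p = 5.92e-07). CREB3L2, an ER membrane factor released by the same proteases as ATF6, was at 70.65 and 72.48 against 36.92 and 39.23 CPM (log2 fold change -0.91, SE 0.15, adjusted p = 4.47e-05).

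In the Hsp70 system 5 of 10 members fell in MOLT4 and 1 rose. HYOU1 (the ER nucleotide exchange factor for HSPA5) was at 335 and 332.3 CPM in controls and 204.2 and 214.5 CPM in knockdown libraries (log2 fold change -0.67, SE 0.0896, adjusted p = 1.94e-06). DNAJB9 was at 33.34 and 36.89 against 17.96 and 21.15 CPM (log2 fold change -0.84, SE 0.161, adjusted p = 0.000267). HSPA5 itself was at 386.1 and 418.3 against 317.7 and 320 CPM (log2 fold change -0.34, SE 0.107, adjusted p = 0.0253); the sizes of these changes were not compared by a test. DNAJC3 (a J-domain protein that also inhibits EIF2AK3) and HSP90B1 fell as well, and SDF2L1 (a partner of DNAJB11) rose from 81.7 to 100 CPM (adjusted p = 0.0337).

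Of the 8 members of ER-associated degradation 4 fell in MOLT4 and 1 rose, and of the 4 of translocation, export and calcium 3 fell. EDEM1 (a lectin that delivers misfolded glycoproteins for degradation) was at 277.7 and 283.9 CPM in MOLT4 controls and 166.3 and 192.7 CPM in knockdown libraries (log2 fold change -0.65, SE 0.085, adjusted p = 1.61e-06). SYVN1 (the ER ubiquitin ligase) was at 56.71 and 54.12 against 35.68 and 35.48 CPM (log2 fold change -0.64, SE 0.115, adjusted p = 0.000131). SEC24D (a cargo adaptor of the COPII coat) was at 62.8 and 62.76 against 35.72 and 40.76 CPM (log2 fold change -0.72, SE 0.139, adjusted p = 0.000356). SEL1L, HERPUD1, SEC61A1 (the channel's main subunit) and WFS1 fell too, and DERL2 rose from 19.1 to 30.9 CPM (adjusted p = 0.0227).

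**Figure D5:**
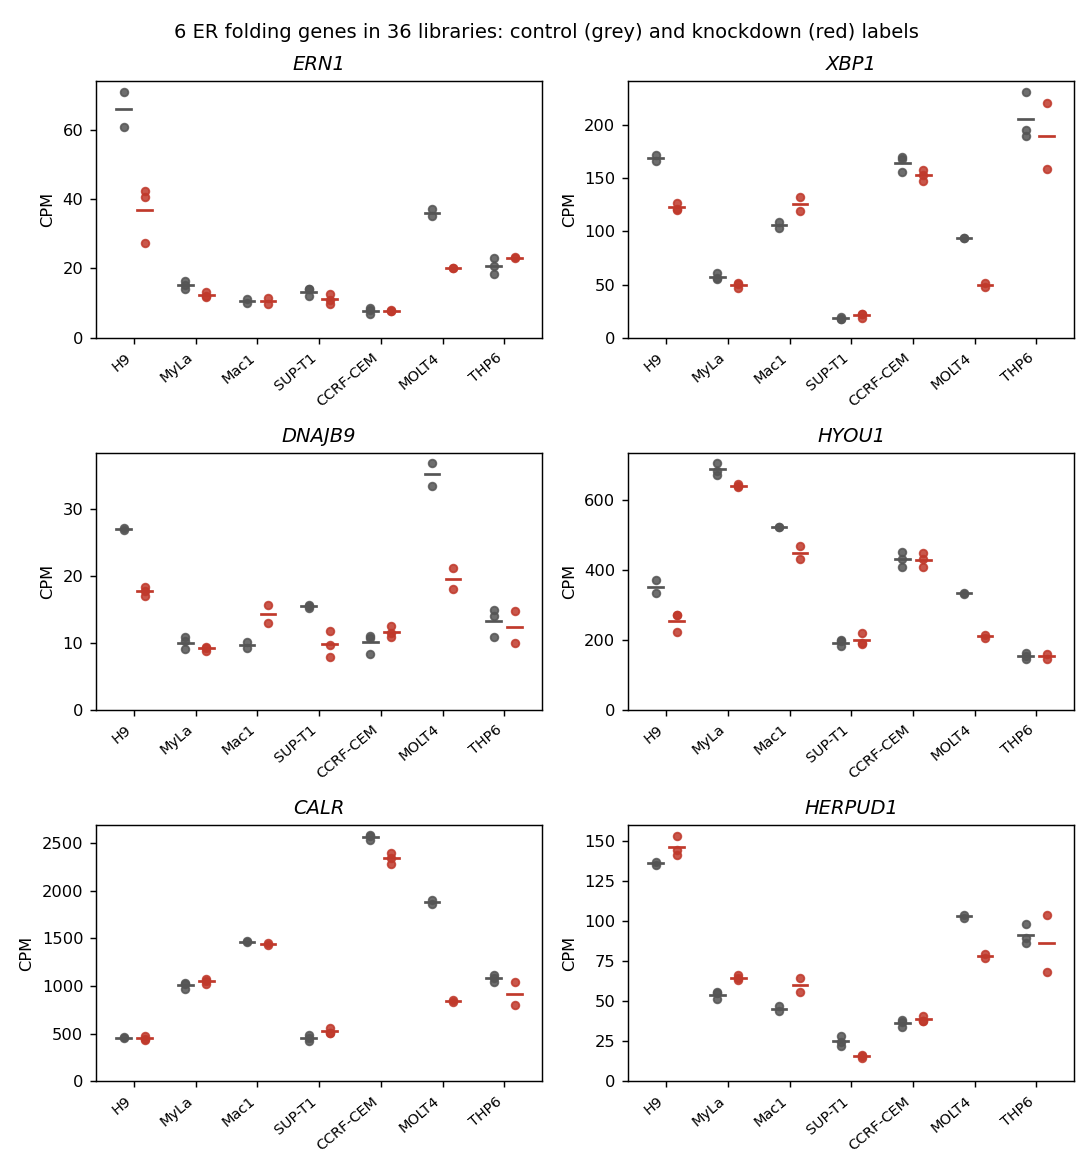
CPM in each of the 36 libraries of ERN1, XBP1, DNAJB9, HYOU1, CALR and HERPUD1, with control libraries in grey, knockdown libraries in red and group means as bars. All 6 genes are lower in both MOLT4 knockdown libraries, and the first 4 are also lower in all 3 H9 knockdown libraries.

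Other markers moved in MOLT4 with these genes. The 13 T cell markers, of which 8 rose and none fell, summed to 2460 and 2508 CPM in controls and 3455 and 3566 CPM in knockdown libraries. Of these 8, CD2 and CD28 were below 1 CPM in controls and at a mean of 1.57 and 0.794 CPM in knockdown libraries. Of the plasma cell markers, SDC1 rose from a mean of 3.93 to 12.7 CPM (edgeR, adjusted p = 2.48e-06), while JCHAIN and TNFRSF17 were below 1 CPM in controls. Their part in the result was not tested. Members with either form of the stress element and members without it both fell in MOLT4: 7 of 10 with it and 11 of 20 without it.

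In H9 6 members fell and none rose, beside 0.965% of all tested genes lower and 0.852% higher; among genes of at least 10 CPM 1.42% were lower. All 6 (HYOU1, DNAJB9, DNAJC3, CANX, ERN1 and XBP1) had also fallen in MOLT4, where they are 28.6% of the 21 members called. MOLT4 had 19 of all 34 members lower, and the share of all genes lower in H9 that also fell in MOLT4 was not counted. ERN1 was at 70.8 and 60.79 CPM in H9 controls and 40.7, 27.22 and 42.29 CPM in knockdown libraries (log2 fold change -0.84, SE 0.132, adjusted p = 0.000278). XBP1 was at 166 and 171.9 CPM in controls and 120.1, 127 and 120.8 CPM in knockdown libraries (log2 fold change -0.46, SE 0.1, adjusted p = 0.00847). In both genes every H9 knockdown library was below every control.

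HYOU1 was at 370.1 and 334.2 CPM in H9 controls and 271.5, 222 and 271.5 CPM in knockdown libraries (adjusted p = 0.000878). DNAJB9 was at 27.08 and 26.8 against 17.02, 17.64 and 18.29 CPM (adjusted p = 0.0196). DNAJC3 fell from a mean of 35.99 to 27.3 CPM (adjusted p = 0.035) and CANX from 574.8 to 473 CPM (adjusted p = 0.044). The H9 knockdown values of these 4 genes all lay below both controls. HSPA5, at 570.6 and 526.4 against 443.4, 400.2 and 460.2 CPM, had the same separation without a call (adjusted p = 0.0746).

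Across the module in H9, 30 of 34 members had a log2 fold change below 0, beside 46.3% of genes of at least 10 CPM. The median was -0.20 over the members and 0.01 over those genes. The libraries were apart with knockdown lower for 23 members (13.9% of all tested genes). The members' summed CPM was 6326 and 6540 in controls and 5362 to 5619 in knockdown libraries. CALR, which had the largest fall in MOLT4, was at 457.4 and 460.6 CPM in H9 controls and 433.2 to 480.9 CPM in knockdown libraries. Of the B and plasma cell markers, CD79A was at a mean of 185.6 CPM in H9 controls and 227.7 CPM in knockdown libraries and SDC1 at 19.5 and 28.0 CPM, neither called, with MS4A1, CD22, JCHAIN and TNFRSF17 below 1 CPM in controls; their part was not tested. Most H9 calls were lost in at least 1 fit that left out a library. Leaving out a control left 1 control library. DNAJB9, DNAJC3, CANX and XBP1 were not called without control 1 or without control 2, and HYOU1 not without control 1. DNAJB9 was also not called without knockdown 1, DNAJC3 without knockdown 2 or 3, and CANX without knockdown 1 or 2. A fit of the H9 libraries alone called 2 members. H9 knockdown 2 had the lowest ERN1, HYOU1 and CANX values. It differed from knockdown 1 and 3 by 27.9 and 37.2 times the Poisson variance per gene, against 5.64 times between those.

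In MyLa SEL1L was the 1 member called. It was at 201.5, 209.2 and 195 CPM in controls and 140.7, 152.6 and 141 CPM in knockdown libraries (log2 fold change -0.48, SE 0.106, adjusted p = 0.0108), beside 0.861% of all tested genes lower and 1.02% higher. Without MyLa knockdown 1 or knockdown 3 it was not called.

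In Mac1, the line with nearly no ATF6, 3 members rose and none fell, beside 5.54% of all tested genes higher and 2.35% lower. DNAJB9 was at 10.06 and 9.186 CPM in controls and 15.6 and 13 CPM in knockdown libraries (log2 fold change 0.58, SE 0.168, adjusted p = 0.031). HERPUD1 was at 43.86 and 46.83 against 64.45 and 55.67 CPM (adjusted p = 0.0347), and DERL1 (a channel-forming derlin) at 151.1 and 150.6 against 191.2 and 178.9 CPM (adjusted p = 0.0419). The T cell markers also summed higher, from 755.3 and 780.2 to 1059 and 1072 CPM, with CD3D, CD3E, CD3G, CD5, CD7, CD28 and LCK below 1 CPM in controls; their part was not tested. Of the 33 members of at least 10 CPM 9.09% were higher, near the 8.65% of all such genes. Without Mac1 control 1 or control 2 no member was called, and without knockdown 1 only 1, which was none of these 3.

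In SUP-T1 5 members were lower and 2 higher in the libraries labelled knockdown, which held more GATA3, beside 8.57% and 8.14% of all tested genes. HERPUD1 was at 28.41, 24.3 and 22.13 CPM in the libraries labelled control and 16.23, 15.64 and 14.83 CPM in those labelled knockdown (log2 fold change -0.68, SE 0.105, adjusted p = 2.2e-05). DNAJB9 was at 15.49, 15.65 and 15.13 against 9.695, 11.73 and 7.894 CPM (log2 fold change -0.66, SE 0.138, adjusted p = 0.000908). By the labels these 2 genes were lower in SUP-T1 and MOLT4 and higher in Mac1, and DNAJB9 was also lower in H9. By GATA3 level the SUP-T1 direction is the reverse, with both genes higher in the libraries that held less GATA3. The F test over lines, which uses the labels, called both (adjusted p = 2.16e-05 for HERPUD1 and 5.17e-05 for DNAJB9).

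The other SUP-T1 calls were smaller or rested on few counts. DNAJC10 (an ER disulfide reductase) was at 33.5 CPM ± 1.45 (SD, n = 3) and 22.6 ± 1.27 (n = 3) in the libraries labelled control and knockdown (adjusted p = 0.0215). CRELD2 was at 45.0 ± 4.09 and 37.3 ± 0.942 CPM (adjusted p = 0.00681), and SYVN1 rose from 35.0 ± 1.07 to 42.7 ± 4.27 CPM (adjusted p = 0.0348). DERL3 was at 1.10, 1.17 and 1.70 CPM against 0.334, 0.761 and 1.08 CPM (adjusted p = 0.0348). The 13 T cell markers summed lower in the libraries labelled knockdown, 3168 to 3334 against 3946 to 4118 CPM; 7 of them fell and 1 rose, CD247 (the T cell receptor zeta chain), from 77.05 to 167.1 CPM (edgeR, adjusted p = 6.15e-10). Their part was not tested. Of the 33 members of at least 10 CPM 12.1% were lower and 6.06% higher, beside 12.2% and 14% of all such genes, so the members' share was near the background for falls and below it for rises. Without SUP-T1 control 1, 4 members were called.

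In CCRF-CEM PDIA4 rose and EDEM1 fell, beside 3.00% of all tested genes higher and 5.43% lower. PDIA4 (a disulfide isomerase) was at 353.4, 347.2 and 369.1 CPM in controls and 410.2, 418.1 and 434.8 CPM in knockdown libraries (log2 fold change 0.24, SE 0.0552, adjusted p = 0.00453). EDEM1 was at 158.8, 148.2 and 161.9 against 134.2, 129.9 and 132.6 CPM (log2 fold change -0.24, SE 0.0697, adjusted p = 0.0254). Neither gene's libraries overlapped. Such separation held for 29.4% of members higher and 11.8% lower, beside 12.8% and 15.9% of all tested genes. EDEM1's call was lost when any 1 of the 6 libraries was left out (adjusted p = 0.0536 to 0.112), with no filter on low counts (0.103) and with the replicate number as a block (0.0508). Without control 1, or without control 2, the library that stood apart, 2 members were called, both higher, and without control 3 or any 1 of the knockdown libraries 1 was called, also higher. Of the 33 members of at least 10 CPM 3.03% were lower, beside 8.49% of all such genes.

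In THP6 3 members rose, beside 5.56% of all tested genes higher and 1.84% lower, and all 3 rested on knockdown 2. Of the 33 members of at least 10 CPM 9.09% were higher, near the 8.92% of all such genes. HSPA5 was at 272.8, 243.8 and 262.7 CPM in controls, 295.8 CPM in knockdown 1 and 439 CPM in knockdown 2 (adjusted p = 0.0022). P4HB was at 454.7 to 462.6 CPM in controls, 481.7 in knockdown 1 and 750.5 CPM in knockdown 2 (adjusted p = 0.00656). SEC24D was at 73.91 to 86.74 CPM in controls, 81.83 in knockdown 1, within the controls, and 142.4 CPM in knockdown 2 (adjusted p = 0.00984). Without knockdown 2 no member was called and 74 genes in all; without knockdown 1, 19 members were, 8 higher and 11 lower, and 7900 genes in all.

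With each line counted once, no member was called in the mean response over 7 lines (edgeR on counts summed per line and arm, 1 of 22965 genes or 0.00435% called), and DESeq2 called none either. At an unadjusted p below 0.05 there were 2 members (5.88%) in edgeR and in DESeq2, beside 2.73% and 2.26% of all genes. In edgeR these were ERN1 (mean log2 fold change -0.31, SE 0.129, adjusted p = 1) and HYOU1 (-0.21, SE 0.0881, adjusted p = 1). Without SUP-T1 no member was called (0.0222% of genes; 2 members and 5.74% of genes at an unadjusted p below 0.05 in edgeR), with HYOU1 at -0.25 (SE 0.0918, adjusted p = 0.776). No member's response differed between CTCL and T-ALL (0.00435% of genes; DESeq2 called none, and 2 members in each tool had an unadjusted p below 0.05, beside 2.73% and 3.08% of genes). HERPUD1 had the lowest p there (log2 difference of responses 0.55, SE 0.185, adjusted p = 1). With lines taken as fixed, so that only the spread between libraries counts, 8 members were called in the mean response, all lower, beside 1073 of all 21138 tested genes (5.08%) called in either direction.

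The wider ER machinery, 116 further genes of which 114 were tested, held 2 genes that fell and 0 that rose in H9, and 20 that fell and 11 that rose in MOLT4. In H9 that is 1.75% lower, beside 0.965% of all tested genes, and in MOLT4 17.5% lower and 9.65% higher, beside 10.3% and 8.88% of all tested genes and 13.7% and 14.5% of those of at least 10 CPM. FKBP11 (an ER prolyl isomerase) fell in both and in CCRF-CEM (64.9 to 39.81 CPM, adjusted p = 1.8e-06), from 39.0 to 30.1 CPM in H9 and from 18.2 to 7.88 CPM in MOLT4 (log2 fold change -1.21, SE 0.119), as did SEC23B (a COPII coat subunit), from 198.5 to 152.5 CPM in H9 and from 125.5 to 100.2 CPM in MOLT4. EDEM3 (a mannosidase of the degradation pathway) was at 55.6 CPM in MOLT4 controls and 29.8 CPM in knockdown libraries. In CCRF-CEM 7 of 17 tested genes of sensing, signalling and the PERK branch fell and none rose, among them TRIB3 (a pseudokinase induced by the PERK branch), from 251.7 to 130.3 CPM, and ATF4 (the transcription factor of that branch), from 776.3 to 573.3 CPM. In all, 13 of the 114 (11.4%) fell and 1 (0.877%) rose in CCRF-CEM, beside 5.43% and 3.00% of all tested genes and 8.49% lower among those of at least 10 CPM.

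In the other lines the shares called lay at most 1 percentage point above those of all genes of at least 10 CPM. MyLa had 1 higher (EDEM3) and 1 lower (SRP68, a signal recognition particle subunit), and Mac1 4 and 4, or 3.51% each way beside 8.65% higher and 2.76% lower among genes of at least 10 CPM, among them CHAC1 (a glutathione-degrading enzyme induced by the PERK branch), which fell from 17.7 to 5.88 CPM. SUP-T1 had 17 higher (14.9%) and 11 lower (9.65%) by its labels, beside 14% and 12.2% of all genes of at least 10 CPM, with FKBP11 up from 9.43 to 16.3 CPM. THP6 had 11 higher (9.65%) and 2 lower (1.75%), beside 8.92% and 2.81% of genes of at least 10 CPM. There PPP1R15A (the phosphatase subunit that reverses PERK signalling) was at 28.7 CPM in controls, 28.3 CPM in knockdown 1 and 68.7 ± 57.1 CPM (SD, n = 2) over both knockdown libraries.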

How the data were processed

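Per the submitters' processing notes, the authors trimmed reads with cutadapt 2.3, aligned them with STAR 2.7.8a and made expected counts per gene with RSEM 1.3.3 on GRCh38; the deposited expected counts were whole, so rounding changed 0 values. Neither annotation release nor strand setting is given in the sources used here, so reads of a member and of a gene that overlaps it on the other strand (for example PNPLA8 at DNAJB9 or MRPL49 at SYVN1) may not be told apart, and PDIA3 has near-identical pseudogene copies. Samples were grouped by title; the cell line field of SUP-T1 carries running numbers and was not used.

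All 36 libraries entered 1 edgeR fit (4.0.16, R 4.3.3) with 14 group means, TMM scaling, filterByExpr (21138 genes), the quasi-likelihood F test and Benjamini-Hochberg adjustment at 0.05; the common dispersion was 0.0118. Tests over lines used counts summed per line and arm (22965 genes) or summed controls (18565 genes). Alternatives were DESeq2 1.42.0, limma-voom (limma 3.58.1), DESeq2 size factors, other filters, a block for the replicate number, separate fits, lines as fixed, and leaving out each library or line. Replicate numbers did not pair libraries (17 correlations of residuals from -0.0596 to 0.0937). Tests were also run on simulated data. Figures were drawn with matplotlib 3.10.9.

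Members, gene lists and tests were chosen with earlier results of these data known. All 34 members could be named: every member called within a line is given there, and where over 10 were called, those 10 with the lowest p with all their values. Of the other ER genes, up to 2 called genes per list and line with the lowest p could be named. The summed level of the B and plasma cell marker list is not reported here.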

Additional observations from a re-analysis of the deposited data

Results flagged for a closer look

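Responses that differed between the 7 lines were picked out for 23 members by the F test of the interaction of line and arm (edgeR, adjusted over all tested genes). In the Hsp70 system the adjusted p was 0.000127 for HSPA5, 4.56e-05 for HYOU1, 5.17e-05 for DNAJB9, 0.00173 for DNAJC3, 0.0004 for HSP90B1 and 0.00313 for CRELD2. Among lectin chaperones and isomerases it was 3.96e-09 for CALR, 1.87e-05 for CANX, 0.00185 for PDIA4 and 0.00886 for P4HB. Among sensors, protease and transcription factors it was 0.00038 for ERN1, 9.37e-06 for XBP1, 0.000438 for CREB3L2 and 0.0352 for MBTPS1, which was called in no single line. In degradation it was 3.65e-05 for EDEM1, 0.00114 for SEL1L, 0.00118 for SYVN1, 2.16e-05 for HERPUD1, 0.0218 for DERL1 and 0.0131 for DERL3. In translocation, export and calcium it was 0.0255 for SEC61A1, 0.000287 for SEC24D and 0.00122 for WFS1. SUP-T1, whose GATA3 level goes against its labels, is among the 7 lines, and without it 21 of the 23 members were called. THP6 knockdown 2, on which the THP6 calls of HSPA5, P4HB and SEC24D rested, is also in this test. P4HB was called in no line but THP6. MOLT4, which held 21 of the 43 calls within lines, is in it too.

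In the control libraries SYVN1 stood apart in 1 T-ALL line: SUP-T1 was at 35.0 CPM and the other 3 lines at 55.4 to 57.01 CPM, a gap of 0.942 of the whole range on the log2 scale, above Dixon's critical value for 4 values. This was 1 of 34 members looked at, and chance alone picks out about 1 in 20. The SUP-T1 libraries labelled knockdown, which held more GATA3, had 42.53, 38.44 and 46.98 CPM of SYVN1.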

How the results depend on the processing

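Of the 43 calls of a member in a line, 15 were kept under every alternative and 0 reversed: HYOU1, DNAJB9, DNAJC3, HSP90B1, CALR, CANX, ERN1, XBP1, CREB3L2, EDEM1, SYVN1, SEC24D and WFS1 in MOLT4, and DNAJB9 and HERPUD1 in SUP-T1. Leaving out 1 library at a time gave 1 to 7 called members in H9 (6 with all), 0 to 1 in MyLa (1), 0 to 2 in Mac1 (3), 4 to 7 in SUP-T1 (7), 1 to 2 in CCRF-CEM (2), 13 to 16 in MOLT4 (21) and 0 to 19 in THP6 (3). In MOLT4 the 13 came without control 1, control 2 or knockdown 1; where 1 library remained in an arm, it was assumed to vary like the other groups. With no filter on low counts SUP-T1 had 4 and CCRF-CEM 1, and with at least 10 counts in 2 libraries Mac1 had 5. DESeq2 called 6 in Mac1 and 7 in THP6, and limma-voom 5 in THP6. Separate fits called 2 in H9, 2 in MyLa, 6 in Mac1 and 0 in THP6. With the replicate number as a block, 1 member was called in CCRF-CEM and 0 in THP6; the numbers are shared labels only. With lines as fixed, 8 members were called in the mean response, beside 1073 of all 21138 genes. DESeq2 size factors shifted the median of all genes by at most 0.0144 (log2) in any line. The causes of these differences were not tested. Low counts limit ATF6 in Mac1 and DERL3 in MyLa and SUP-T1.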
